A study of Mus musculus with 219 samples.

Results

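The transcripts of 10 genes of DNA methylation were followed, 10 of the 32285 genes in each deposited count table: *Dnmt1*, *Dnmt3a*, *Dnmt3b* and *Dnmt3l*, which write DNA methylation or help to write it, *Tet1*, *Tet2* and *Tet3*, which oxidise it, and *Uhrf1*, *Dppa3* and *Zfp57*, which maintain or protect it. They were chosen by symbol for their function, not by a measured value, though earlier results of these data were known. Each symbol had 1 entry in both tables. Oocytes of B6C3F1 mice, from females 6 to 8 weeks old, were fertilized by intracytoplasmic sperm injection (ICSI) with cryopreserved sperm of 2 CD1 males aged 3 months, so every embryo was a B6C3F1xCD1 hybrid and every embryo had been injected. The sperm head was placed at the pole opposite the meiotic spindle (contralateral ICSI, at the V pole), next to the spindle (ipsilateral ICSI, labelled isolateral, at the A pole) or between both poles (equatorial ICSI), and culture was in KSOM with amino acids. Some 2-cell embryos were split and both monozygotic blastomeres lysed singly, others were split and each blastomere grown to a twin blastocyst, and intact embryos were grown to blastocysts without splitting. Contralateral, ipsilateral and equatorial ICSI contributed 21, 21 and 13 2-cell embryos, 6, 7 and 6 pairs of twin blastocysts, and 11, 8 and 12 intact blastocysts. The embryo was the unit of comparison, with the counts of both sisters added, because sisters share an oocyte and a sperm.

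In mammals a methyl group on the cytosine of a CG dinucleotide is copied at replication by DNMT1, which UHRF1 brings to hemimethylated CG sites, and new sites are methylated by DNMT3A and DNMT3B, for which DNMT3L is a cofactor without catalytic activity. The TET enzymes oxidise methylcytosine. In the zygote and the cleaving embryo most methylation of the gametes is lost, with TET3 acting in the zygote, while the maternal protein DPPA3 (also called STELLA) protects the maternal genome from that oxidation, and ZFP57 recruits TRIM28 to imprinted regions that keep their marks. In the mouse the transcripts of the oocyte are degraded mainly during the 2-cell stage, when the embryonic genome is activated, and the level of DNA methylation is lowest around the blastocyst stage. None of these files measures methylation or protein, only transcripts.

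The genomic sequence just before the transcription start is shown for 3 of the genes whose transcripts differed most between the stages, *Zfp57*, which fell, and *Dnmt3b* and *Tet2*, which rose. The sequences are the 250 bases before the start in RefSeq's annotation of GRCm38.p6, read 5′ to 3′ on the strand of the gene, with each CG dinucleotide, the substrate of the enzymes studied here, in capitals. The windows lie at chr17:37000913-37001162 on the plus strand (*Zfp57*, the first of 3 annotated starts), chr2:153649199-153649448 on the plus strand (*Dnmt3b*) and chr3:133544391-133544640 on the minus strand (*Tet2*), and none overlaps an annotated exon.
Zfp57: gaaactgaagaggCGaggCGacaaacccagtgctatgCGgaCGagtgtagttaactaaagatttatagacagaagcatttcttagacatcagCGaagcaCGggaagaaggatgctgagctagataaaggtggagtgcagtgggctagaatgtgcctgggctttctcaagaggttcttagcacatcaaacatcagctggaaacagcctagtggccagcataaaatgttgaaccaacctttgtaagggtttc
Dnmt3b: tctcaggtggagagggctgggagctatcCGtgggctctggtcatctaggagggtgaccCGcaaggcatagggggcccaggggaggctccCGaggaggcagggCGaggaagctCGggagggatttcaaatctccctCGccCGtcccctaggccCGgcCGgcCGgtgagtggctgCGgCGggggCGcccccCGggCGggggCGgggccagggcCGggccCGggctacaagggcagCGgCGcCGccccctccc
Tet2: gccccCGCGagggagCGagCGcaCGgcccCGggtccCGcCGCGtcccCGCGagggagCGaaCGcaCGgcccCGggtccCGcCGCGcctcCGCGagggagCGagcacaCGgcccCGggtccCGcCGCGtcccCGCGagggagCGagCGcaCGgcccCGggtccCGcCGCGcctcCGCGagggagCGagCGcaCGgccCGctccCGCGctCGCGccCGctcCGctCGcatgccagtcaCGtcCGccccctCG
The *Zfp57* window held 6 CG dinucleotides, which is also the median of 32851 promoter windows of the same length. The *Dnmt3b* window held 21, a number reached by 16.3% of those windows. The *Tet2* window held 51, reached by 0.067% of them. Of the 10 genes, 9 had an entry in the promoter table. Among the other genes that rose or fell between the stages, the number of CG did not follow the direction. *Dnmt3l*, which rose, had 5, 4 and 3 at its 3 starts. Of those that fell, *Dnmt3a* had 38, 40 and 15, *Tet3* had 17, and *Uhrf1* had 10 and 30. The printed letters describe the reference and do not show whether the CG sites were methylated in the embryos.

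Total counts ranged from 360474 to 2100561 in the 110 blastomeres of the 55 2-cell embryos, from 713410 to 2161062 in the 38 twin blastocysts and from 234099 to 1254428 in the 31 intact blastocysts. All blastocysts were on plate 2, and 42 of the 2-cell embryos were on plate 1. A list of 7 oocyte and maternal genes summed to 4350 to 7000 CPM (counts scaled to equal library totals) in 2-cell embryos and to at most 13.2 in any blastocyst, where 7 of its 7 genes had a median of 0 in intact and 5 in twin blastocysts. Lists of trophectoderm, epiblast and primitive endoderm genes were present in twin and in intact blastocysts, with no gene at a median of 0, and 7 cumulus cell genes summed to a median of 26.4 CPM in 2-cell embryos. Reads were counted without strand, so the 133 exonic bases that *Dnmt3a* shares with *Dnmt3aos*, the 67 that *Dnmt3l* shares with *Aire* and the 43 that *Tet2* shares with *Gm42567* could not be assigned by strand, and *Dnmt3c* is a near copy of *Dnmt3b*. A blastocyst library is a mixture of cell types, in which fewer cells of a type and less RNA per cell cannot be told apart.

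In 2-cell embryos *Dppa3* was by far the most abundant of the 10 transcripts. Compared per length, as TPM (counts divided by exonic length and scaled to equal totals), its level had a median of 5436, above 99.8% of all genes, and stood above *Uhrf1* in 55 of 55 embryos. *Uhrf1* followed with a median of 162 TPM, then *Tet3* with 124.6 TPM. *Zfp57* (100 TPM) and *Dnmt3l* (98.2 TPM) were not separated, since *Zfp57* was the higher of the pair in 27 of 55 embryos. *Dnmt1* (35.6 TPM) and *Dnmt3a* (35.3 TPM) were likewise not ordered beyond their spread, with *Dnmt1* higher in 34 of 55 embryos. Below them came *Dnmt3b* at 24.4, *Tet1* at 15.2 and *Tet2* at 3.28 TPM. *Tet3* made up 87.6% of the summed TPM of the 3 Tet genes (median, lowest 72.6%, highest 97.7%, n = 55).

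**Figure D1:**
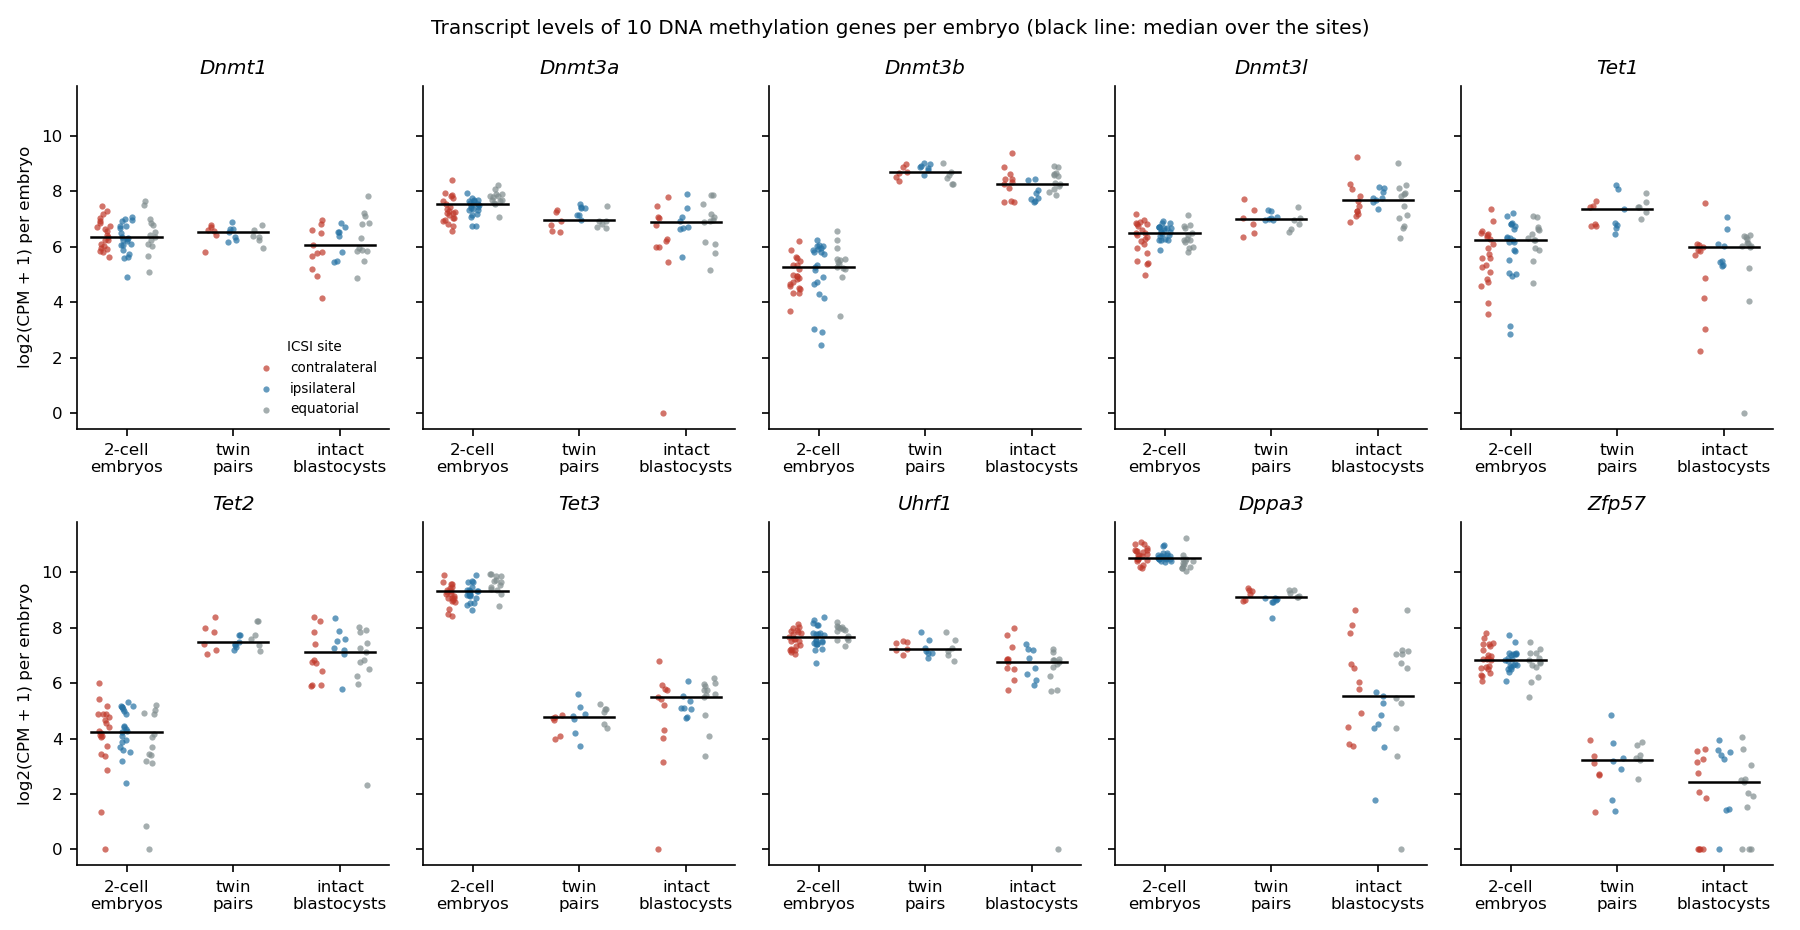
Level of each of the 10 genes per embryo, as log2(CPM + 1), in 2-cell embryos, twin pairs and intact blastocysts, with colours for the ICSI site and a black line at the median. *Tet3*, *Dppa3* and *Zfp57* of intact blastocysts lie below all 2-cell embryos, and *Dnmt3b* lies above all of them.

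Between the 2-cell stage and the intact blastocyst 8 of the 10 genes passed the test, 3 higher and 5 lower in blastocysts (edgeR's quasi-likelihood test with ICSI site and plate as terms, Benjamini-Hochberg adjusted over 15397 genes). Most of the transcriptome differed between these stages, with 75.3% of all genes tested called, 30.9% higher and 44.3% lower, so 8 of 10 is near the background. The median log2 difference was -0.50 over the 10 genes and -0.42 over all genes tested. The size and direction of each gene's difference are given by role. All of these levels are relative to the other transcripts of a library, and so are the words rose and fell. The amount of a transcript per embryo or per cell was not measured. Where the groups of a gene did not overlap, the share of all genes without overlap is not given here.

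The protectors fell the most. *Zfp57*, a KRAB zinc finger protein that binds methylated imprinted regions (GRCm38, chr17:37001163-37010635), had 44.6 CPM in the lowest, 113.9 in the median and 223 in the highest 2-cell embryo, and 0, 4.41 and 15.7 CPM in intact blastocysts. Its groups did not overlap, and the log2 difference was -4.82 ± 0.26 (SE; edgeR adjusted p = 3.47e-31), a level 28.3-fold lower. In 8 of 31 intact blastocysts no *Zfp57* read was counted, and 3 counts in the shallowest of these libraries would be 12.8 CPM, so the levels there were at the limit of the depth. *Dppa3* (chr6:122626410-122630272) had 1069, 1450 and 2408 CPM in the lowest, median and highest 2-cell embryo, and 0, 45.7 and 403 CPM in intact blastocysts. All 31 intact blastocysts were below all 55 2-cell embryos, with a log2 difference of -4.51 ± 0.31 (edgeR adjusted p = 2.48e-23). The intact blastocysts were far from uniform, however, since their *Dppa3* levels had an SD of 105.3 CPM around a mean of 88.9.

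Among the oxidases the prevailing gene was a different one at each stage. *Tet3*, the maternal enzyme of the zygote (chr6:83362373-83459084), fell from 344, 637 and 990 CPM (lowest, median and highest 2-cell embryo) to 0, 43.8 and 111.1 CPM in intact blastocysts. The groups did not overlap, and the log2 difference was -4.11 ± 0.17 (edgeR adjusted p = 3.77e-41). *Tet2* (chr3:133463679-133545139), whose CG-rich start is printed above, rose from 0, 17.8 and 63.7 CPM to 4.01, 138 and 335 CPM. Of the intact blastocysts, 25 of 31 were above every 2-cell embryo, and the log2 difference was 2.64 ± 0.39 (edgeR adjusted p = 4.78e-09). *Tet1* (chr10:62804570-62908996) did not pass the test, with medians of 74.04 CPM in 2-cell embryos and 63.2 CPM in intact blastocysts and a log2 difference of -0.18 (95% confidence interval -0.81 to 0.46, edgeR adjusted p = 0.628). With twin in place of intact blastocysts the *Tet1* difference was 1.33 (edgeR adjusted p = 4.90e-05), so a rise was called with twin blastocysts and no change with intact ones. In TPM the median share of *Tet3* among the 3 Tet genes was 17.9% in intact blastocysts and 6.55% in twin pairs, and that of *Tet2* was 51.8% and 50.9%.

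Of the writers, *Dnmt3b* and its cofactor rose while *Dnmt3a* fell. *Dnmt3b*, a de novo methyltransferase (chr2:153649450-153687730), had 4.49, 37.3 and 94.0 CPM in the lowest, median and highest 2-cell embryo, and 195, 309 and 666 CPM in intact blastocysts, with no overlap. The log2 difference was 2.38 ± 0.26 (edgeR adjusted p = 8.32e-14). *Dnmt3l* (chr10:78041947-78063622) had 30.5, 88.7 and 143 CPM in 2-cell embryos and 78.0, 205 and 598 CPM in intact blastocysts, 24 of which were above every 2-cell embryo. Its log2 difference was 1.19 ± 0.20 (edgeR adjusted p = 8.57e-08). *Dnmt3a* (chr12:3806007-3914443) fell, from a median of 183 CPM (93.1 to 340) to 116.6 CPM (0 to 239), by 0.79 ± 0.20 on the log2 scale (edgeR adjusted p = 0.000208), and 11 of 31 intact blastocysts were below every 2-cell embryo. As a share of the summed TPM of *Dnmt3a* and *Dnmt3b*, *Dnmt3b* had a median of 39.8% in 2-cell embryos, 90.1% in intact blastocysts and 90.9% in twin pairs. Every blastocyst had at least 74.4%, above the 66.2% of the highest 2-cell embryo.

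Of the maintenance genes 1 fell and 1 was not called. *Uhrf1* (chr17:56303321-56323486) fell from a median of 204 CPM (105.9 to 330) to 108.4 CPM (0 to 256), with a log2 difference of -1.05 ± 0.17 (edgeR adjusted p = 7.94e-08). *Dnmt1* (chr9:20907209-20959888) had medians of 80.8 CPM (28.7 to 198) and 65.1 CPM (16.7 to 224), which overlapped almost wholly. Its log2 difference of -0.22 (95% confidence interval -0.67 to 0.23) was not called (edgeR adjusted p = 0.377). Without the plate term both *Dnmt1* (-0.53, edgeR adjusted p = 0.00114) and *Tet1* (-0.55, edgeR adjusted p = 0.0194) were called lower, and with the 13 2-cell embryos of plate 2 alone, on the plate of the blastocysts, 8 of the 10 genes were called again.

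**Figure D2:**
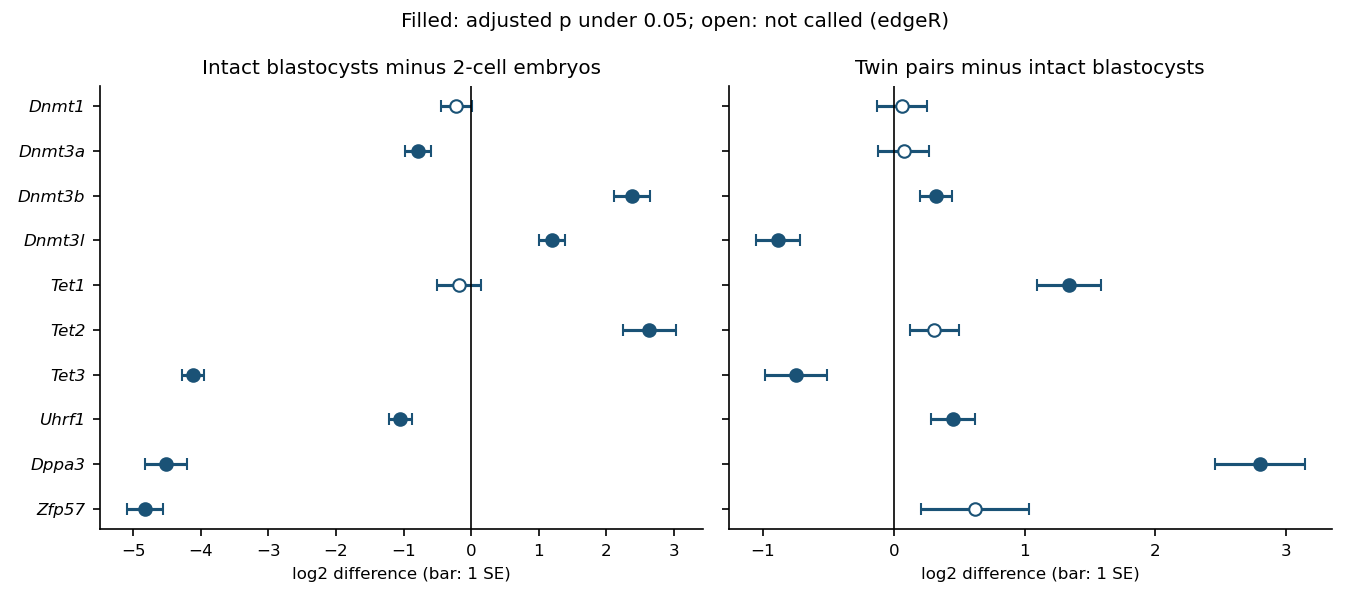
Fitted log2 difference of each gene (point) with 1 SE (bar), for intact blastocysts minus 2-cell embryos on the left and twin pairs minus intact blastocysts on the right. Filled points have an adjusted p under 0.05 in edgeR. *Zfp57*, *Dppa3* and *Tet3* stand below -4 on the left, where *Tet2* and *Dnmt3b* stand above 2, and *Dppa3* and *Tet1* stand highest on the right.

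The order of levels in the blastocyst was different. In intact blastocysts *Dnmt3l* (median 201 TPM), *Dnmt3b* (177 TPM) and *Dppa3* (154 TPM) led and were not ordered beyond their spread, since *Dnmt3l* exceeded *Dnmt3b* in 19 and *Dnmt3b* exceeded *Dppa3* in 15 of 31 embryos. In twin pairs *Dppa3* still led with 1750 TPM and stood above *Dnmt3b* (239 TPM) in 19 of 19. *Tet1* and *Tet2* had close medians in twin pairs, 30.4 and 30.3 TPM, and *Tet1* was the higher of both in 6 of 19 pairs. The lowest of the 10 genes was *Zfp57* in intact blastocysts, at 3.43 TPM, and *Tet3* in twin pairs, at 4.51 TPM.

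Of 81 partners in 7 lists of the same pathway, 77 could be tested between the stages, and 31 were higher and 32 lower in intact blastocysts, beside 30.9% and 44.3% of all genes. Maintenance partners mostly fell, 8 of 10 lower and 1 higher. Among them *Usp7*, a deubiquitinase that binds UHRF1 and DNMT1, was at 573 ± 76.5 CPM in 2-cell embryos (SD, n = 55) and 331 ± 70.4 CPM in intact blastocysts (SD, n = 31). *Dmap1*, a DNMT1-binding protein, rose instead, from 5.59 ± 6.26 to 71.8 ± 31.1 CPM. Of the histone enzymes linked to methylation in the oocyte, *Setd2*, which writes H3K36 trimethylation, fell from 355 ± 94.1 to 101.9 ± 32.7 CPM, and *Ehmt2*, an H3K9 methyltransferase, rose from 9.18 ± 7.64 to 95.2 ± 36.4 CPM. Of 9 partners of *Zfp57* in imprint protection 5 were higher and 3 lower, and the corepressor *Trim28* rose from 147 ± 47.6 to 290 ± 65.5 CPM (log2 difference 0.83 ± 0.14, edgeR adjusted p = 1.22e-07).

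Partners of the oxidases rose in 6 of 10 cases and fell in 2. *Idh1* and *Idh2*, dehydrogenases that make the 2-oxoglutarate used by TET enzymes, were at 22.04 ± 11.97 and 1.45 ± 4.72 CPM in 2-cell embryos and at 169 ± 58.4 and 173 ± 71.5 CPM in intact blastocysts. *Cul4b* and *Dcaf1*, members of the CRL4 ubiquitin ligase, fell. *Tdg*, the glycosylase that excises oxidised methylcytosine, was near absence in 2-cell embryos, at 0.152 ± 0.630 CPM (SD, n = 55), and at 138 ± 48.1 CPM in intact blastocysts (SD, n = 31). The list of methyl-CpG readers also holds genes placed there by family, such as *Mbd5*, whether or not their proteins bind methyl-CpG. Of its 9 genes 5 rose and 2 fell, among the latter *Mbd5*, from 153 ± 42.5 to 19.7 ± 16.2 CPM. In the methyl donor cycle 7 of 17 rose and 6 fell, and *Mat2b*, a regulatory subunit of methionine adenosyltransferase, fell from 762 ± 127.6 to 76.8 ± 47.1 CPM.

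Whether the site of sperm entry left a difference in 2-cell embryos was asked next. Between contralateral and equatorial ICSI, *Tet3* was lower and *Dppa3* higher after contralateral ICSI, 2 of the 10 genes, at a background of 11.7% of 14858 genes called. *Tet3* had 344, 588 and 948 CPM (lowest, median and highest) in 21 contralateral embryos, 402, 630 and 968 in 21 ipsilateral embryos and 444, 803 and 990 in 13 equatorial embryos. The ranges overlapped almost wholly, yet 20 of 21 contralateral embryos were below the equatorial median. The log2 difference was -0.36 ± 0.11 (edgeR adjusted p = 0.0186), a level 1.29-fold lower. *Dppa3* had 1137, 1581 and 2179 CPM in contralateral, 1319, 1471 and 2030 in ipsilateral, and 1069, 1275 and 2408 in equatorial embryos. The highest embryo of all was equatorial, and 18 of 21 contralateral embryos were above the equatorial median. Here the log2 difference was 0.27 ± 0.09 (edgeR adjusted p = 0.0316).

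None of the other genes was called between contralateral and equatorial ICSI. The largest log2 difference among the 10 genes, 0.44 in size, belonged to one of these uncalled genes and not to *Dnmt3a*. *Dnmt3a* had means of 168 ± 58.3 CPM after contralateral (SD, n = 21) and 218 ± 40.9 CPM after equatorial ICSI (SD, n = 13). Its log2 difference of -0.36 ± 0.13 missed the threshold (edgeR adjusted p = 0.0527). *Dnmt3a* passed it in 7 of 11 alternatives, none of which limited the mitochondrial share of counts or took it as a covariate. Between ipsilateral and equatorial ICSI, where 6.07% of all genes were called (3.48% higher, 2.59% lower), none of the 10 genes passed edgeR's test, 2 had an unadjusted p under 0.05, beside 18.6% of all genes, and DESeq2 also called 0. For that comparison *Tet3* had a log2 difference of -0.27 ± 0.11 (edgeR adjusted p = 0.154) and *Dnmt3a* one of -0.31 ± 0.13 (edgeR adjusted p = 0.171). Both comparisons use the same 13 equatorial embryos. Between the contralateral and the ipsilateral pole 0% of all genes and none of the 10 were called by edgeR, 0 of the 10 had an unadjusted p under 0.05, and DESeq2 called 0.

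Both calls moved with the mitochondrial share of counts, which had medians of 1.61% in contralateral, 1.497% in ipsilateral and 1.24% in equatorial embryos. Over the 55 embryos *Dppa3* rose with that share (Spearman rho 0.62) and *Tet3* fell with it (rho -0.59), as a description, since all these values come from the same libraries. With the share as a covariate, an alternative chosen after seeing the data, the differences were -0.23 for *Tet3* (edgeR adjusted p = 0.234) and 0.08 for *Dppa3* (edgeR adjusted p = 0.625), and neither was called. Neither was called in the 48 embryos with at most 2% mitochondrial counts in each sister. *Dnmt3a* also fell with the share (rho -0.37) and was likewise not called in either of these alternatives. On plate 1 the *Dppa3* medians were 1644 CPM in 18 contralateral and 1265 CPM in 11 equatorial embryos, whereas on plate 2 they were 1418 CPM in 3 and 1984 CPM in 2. For *Tet3* they were 588 and 815 CPM on plate 1, and 542 and 559 CPM on plate 2.

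**Figure D3:**
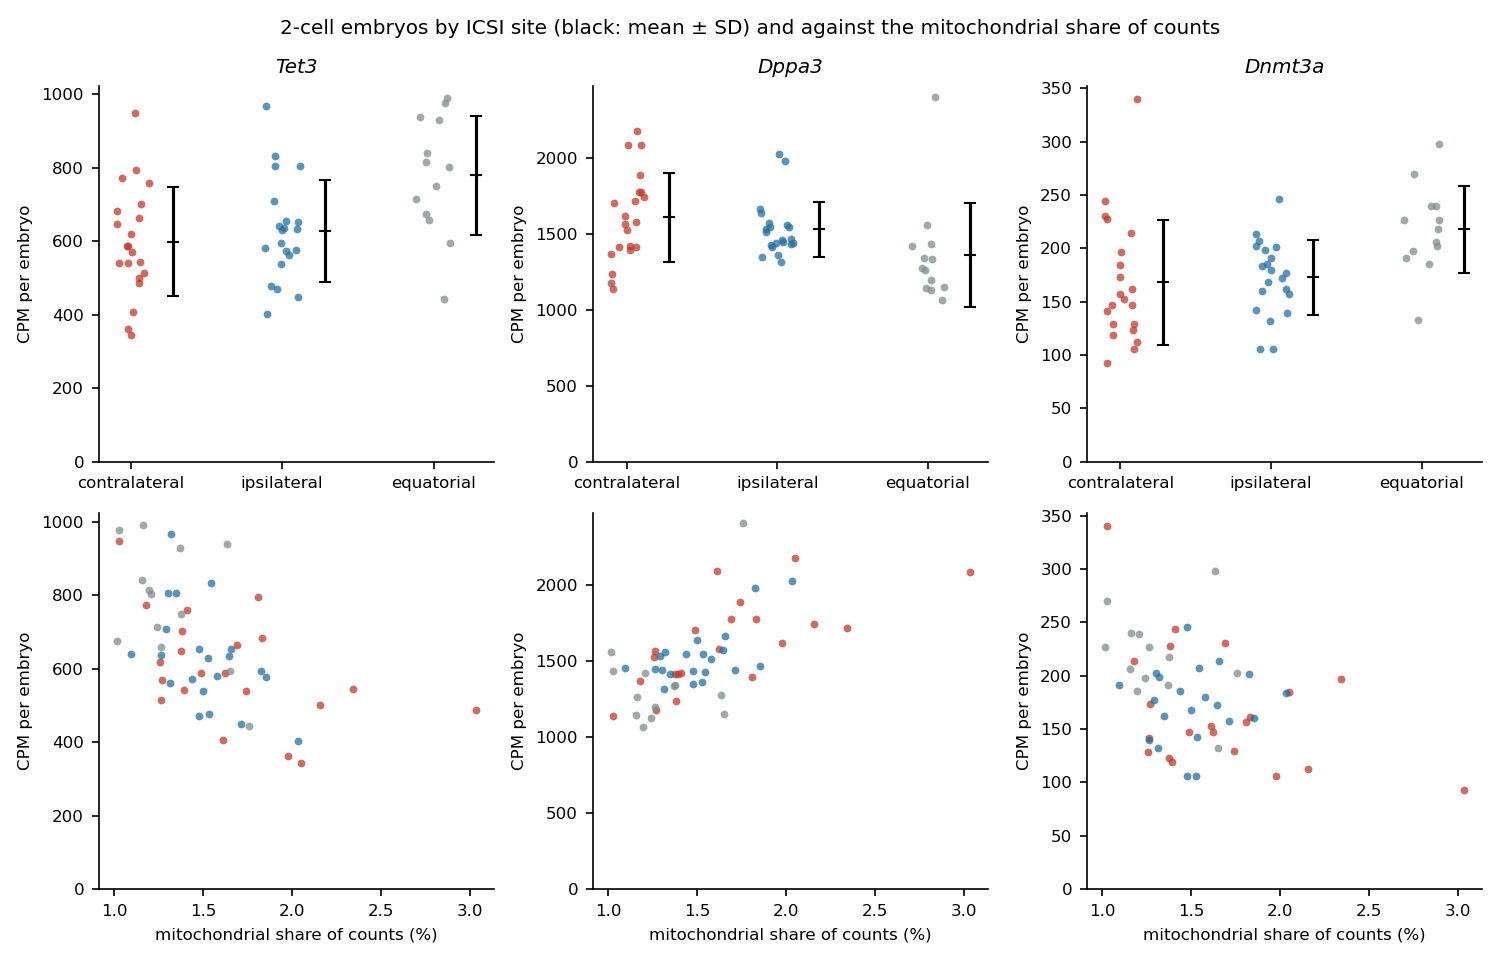
*Tet3*, *Dppa3* and *Dnmt3a* in CPM per 2-cell embryo, by ICSI site in the upper panels (black, mean ± SD, n = 21, 21 and 13) and against the mitochondrial share of counts in percent in the lower panels. *Tet3* is lower and *Dppa3* higher towards high mitochondrial shares, where most embryos are contralateral.

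Of the 81 partners 74 were tested between the sites. After contralateral ICSI 10 were lower and 3 higher than after equatorial ICSI, beside 4.74% lower and 7% higher among all genes. The lower ones included *Trim28* (124.7 ± 38.3 against 192 ± 49.5 CPM, SD, n = 21 and 13, log2 difference -0.61 ± 0.14, edgeR adjusted p = 0.00152). They also included *Cbx3*, a heterochromatin protein (-0.76 ± 0.18, edgeR adjusted p = 0.00241), and the histone methyltransferases *Setd2* (-0.37 ± 0.10, edgeR adjusted p = 0.0101) and *Nsd1* (-0.30 ± 0.10, edgeR adjusted p = 0.0321). The higher ones were *Zfp932*, *Cul4b* and *Mat2b*. After ipsilateral ICSI 4 were lower, namely *Ddb1*, *Cbx3*, *Sall4* and *Ung*, and 1 was higher, *Cul4b*, against the same equatorial embryos, beside 2.59% lower and 3.48% higher among all genes. All these partner calls come from the main fit. Whether they hold with the mitochondrial share as a covariate or under a limit on it, where *Tet3* and *Dppa3* lost theirs, is not given here.

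Monozygotic blastomeres were then compared within each embryo. The sister letters a and b carry no known order, and between them 0% of 18323 genes and none of the 10 were called by edgeR with the embryo as a block, with 0 of the 10 at an unadjusted p under 0.05. How far sisters lay apart differed greatly among the genes. The median absolute log2 difference of log2(CPM + 1) was 0.22 for *Dppa3*, 0.31 for *Uhrf1*, 0.32 for *Tet3*, 0.36 for *Dnmt3a*, 0.50 for both *Zfp57* and *Dnmt3l*, 0.57 for *Dnmt1*, 0.64 for *Tet1*, 1.02 for *Dnmt3b* and 1.69 for *Tet2*. Over all genes tested the median was 0.69. Sisters lay closest in the genes with the highest levels and furthest apart in *Tet2*, the lowest of the 10 in TPM.

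Counting error alone would give medians from 0.04 for *Dppa3* to 0.51 for *Tet2*, below the observed value in each of the 10 genes. Blastomeres of different embryos of the same site and plate lay about as far apart as sisters, with medians of 0.24 for *Dppa3*, 0.40 for *Tet3* and 1.72 for *Tet2*. The widest gap between the 2 was in *Tet1*, with 0.64 between sisters and 0.97 between embryos. Embryos accounted for 40.5% of the variance of *Tet3*, 34.4% of *Tet1* and 30.1% of *Dppa3*, but for 2.74% of *Dnmt1* and 3.51% of *Tet2*. *Tet2* had no read in 14 of 110 blastomeres. Single pairs were strongly unequal in *Tet1*: ipsilateral embryo 64 had 115.3 CPM (170 reads) in one sister and 0.677 CPM (1 read) in the other, and contralateral embryo 8 had 51.3 CPM (59 reads) and none. These 2 pairs were chosen for their size after their values were seen. Embryo 8 had the highest mitochondrial share of the 2-cell embryos analysed, 3.03%, and the lowest total count of the contralateral ones, 1590166. Embryo 64 had 1.48% and 2951210 counts. The part of library quality in these unequal pairs was not tested.

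Whether sisters lay further apart after one ICSI site than after another was tested on their absolute differences with limma. None of the 10 genes was called, at backgrounds of 0.121% (contralateral against equatorial), 0.141% (ipsilateral against equatorial) and 0% (contralateral against ipsilateral) of 14858 genes. *Uhrf1* was the only member with an unadjusted p under 0.05. Its sister distance was lower by 0.32 ± 0.12 after contralateral (limma adjusted p = 0.302) and by 0.26 ± 0.12 after ipsilateral ICSI (limma adjusted p = 0.390) than after equatorial ICSI.

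**Figure D4:**
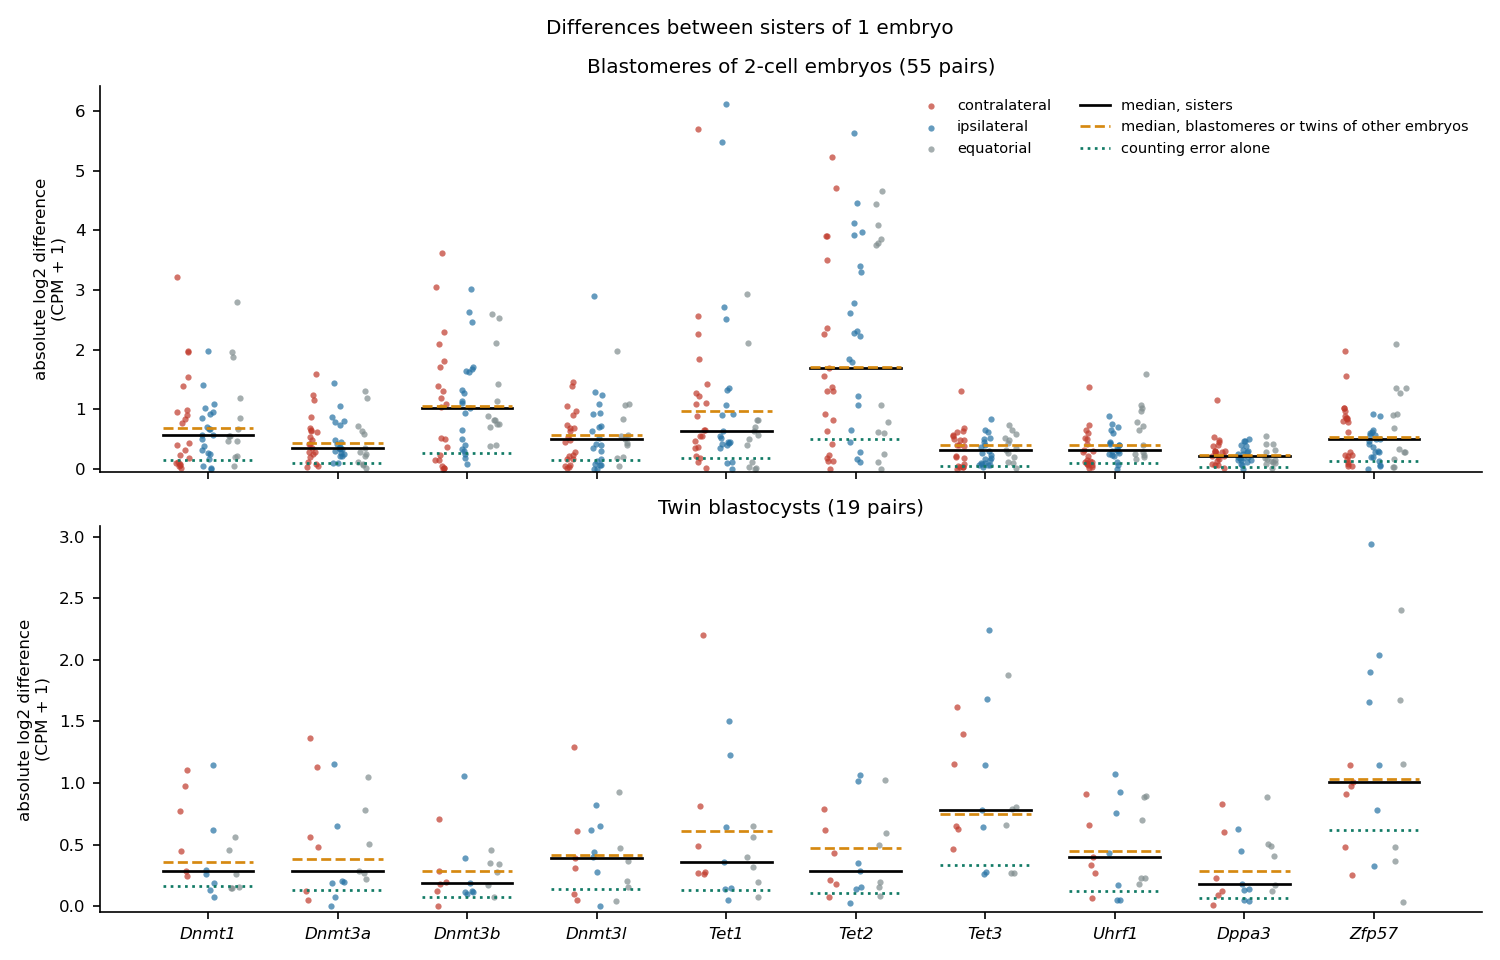
Absolute difference of log2(CPM + 1) between sisters of 1 embryo for each gene, for blastomeres above (55 pairs) and twin blastocysts below (19 pairs), coloured by ICSI site. Black lines are medians of sisters, dashed lines medians of pairs from other embryos, and dotted lines what counting error alone would give. *Dppa3* lies lowest and *Tet2* highest among blastomeres, while *Zfp57* and *Tet3* lie highest among twins.

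Twin blastocysts of 1 embryo lay closer than blastomeres in 7 of the 10 genes, a difference that was not tested, with medians of 0.18 for *Dppa3*, 0.19 for *Dnmt3b*, 0.29 for *Tet2*, 0.78 for *Tet3* and 1.01 for *Zfp57*, and 0.49 over all genes. Twin b and twin a differed in 0% of 12103 genes and in none of the 10 by edgeR, and 1 of the 10, *Dnmt3a*, had an unadjusted p under 0.05 (log2 difference -0.27 ± 0.12, edgeR adjusted p = 0.972). Here the distance to twins of other embryos was 0.28 for *Dppa3* and 0.61 against 0.36 within pairs for *Tet1*. For *Tet3* it was 0.75, below the 0.78 within pairs. Embryos accounted for an estimated 0% of the variance of *Dppa3*, *Dnmt3a* and *Tet3*, 4.26% of *Dnmt1* and 7.76% of *Uhrf1*. In the other genes the share lay between 19.6% (*Dnmt3b*) and 39.5% (*Tet2*).

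In blastocysts no gene of the 10 differed between ICSI sites in edgeR's test, and neither did any other gene (0% of 10995 genes in twin pairs and 0% of 9165 in intact blastocysts, in each of the 3 comparisons). DESeq2 called 0 of the 10 as well. *Zfp57* was too sparse to be tested in intact blastocysts. At an unadjusted p under 0.05, 3 of 10 genes differed between ipsilateral and equatorial twin pairs and 2 of 9 between the same intact groups, beside 3.87% and 3.69% of all genes. For contralateral against ipsilateral ICSI these numbers were 2 and 2, beside 6.86% and 5.7%, and for contralateral against equatorial ICSI 0 and 0, beside 6.62% and 6.86%.

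*Dppa3* was among these in both kinds of blastocyst. In twin pairs it had 329, 508 and 543 CPM (lowest, median and highest) in 7 ipsilateral embryos, 546, 588 and 658 in 6 equatorial embryos and 496, 617 and 683 in 6 contralateral embryos. All 7 ipsilateral pairs were below all 6 equatorial pairs, by a log2 difference of only -0.30 ± 0.10, and after adjustment over all genes the difference was not called (edgeR adjusted p = 1.00). The share of all genes that separate these pairs as fully is not given here, so the separation is a description of this gene only. In intact blastocysts *Dppa3* had 2.45, 25.1 and 50.8 CPM in 8 ipsilateral, 0, 98.7 and 403 in 12 equatorial and 12.4, 65.2 and 399 in 11 contralateral embryos. The ipsilateral range lay within the equatorial one, at its lower end. The log2 difference to equatorial embryos was -2.02 ± 0.70 (edgeR adjusted p = 1.00) and that of contralateral to ipsilateral embryos was 2.21 ± 0.71 (edgeR adjusted p = 0.822).

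The change of *Dppa3* from the 2-cell stage to the intact blastocyst was also tested between sites, in 1 fit with a mean for each stage and site. Here *Dppa3* was called, with a fall that was larger by 2.19 ± 0.53 on the log2 scale after ipsilateral than after equatorial ICSI (95% confidence interval -3.23 to -1.15, edgeR adjusted p = 0.0269), the only call among the 10 genes, at a background of 0.537% of 16022 genes. The 2 fits use the same intact blastocysts, and they differ in the 2-cell embryos that enter and in the spread they estimate. The joint fit takes a shared spread for both stages. *Dppa3* had 1524 ± 282 CPM in 2-cell embryos but 88.9 ± 105.3 CPM in intact blastocysts (SD). The difference was not called among intact blastocysts alone, where p was adjusted over 9165 genes and not 16022. Which of these features separates the 2 results was not tested. In 6 alternatives chosen after seeing the data the difference lay between -2.39 and -2.17, with edgeR or DESeq2 adjusted p from 0.00459 to 0.0384. These alternatives also fitted both stages together. For contralateral against equatorial ICSI none of the 10 was called at a background of 2.42% (1.14% higher, 1.27% lower), *Dppa3* had a difference of -0.14 (95% confidence interval -1.04 to 0.76), 1 of the 10, *Uhrf1*, had an unadjusted p under 0.05 (0.62 ± 0.28, edgeR adjusted p = 0.235), and DESeq2 called 0. *Dppa3* of intact blastocysts also ran with the total count of the library (Spearman rho 0.53, n = 31). The median total count was 644592 in ipsilateral, 633460 in contralateral and 846604 in equatorial embryos. The part of the total count in the difference was not tested.

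Twin and intact blastocysts differed in 6 of the 10 genes at a background of 41.7% of 9985 genes. Each twin had grown from 1 blastomere, which was released from the zona pellucida by bisection and cultured singly. Intact blastocysts had grown from both blastomeres without bisection. These features go together in the design and cannot be told apart. *Dppa3* differed the most, with 329, 546 and 683 CPM in the lowest, median and highest of 19 twin pairs and 0, 45.7 and 403 CPM in 31 intact blastocysts. In 18 of 19 twin pairs it was above every intact blastocyst, and the log2 difference was 2.80 ± 0.34 (edgeR adjusted p = 6.21e-09), a level 6.96-fold higher. *Tet1* followed, with 87.2, 165 and 300 CPM in twin pairs and 0, 63.2 and 189 CPM in intact blastocysts. All 19 twin pairs were above the intact median, and the log2 difference was 1.34 ± 0.24 (edgeR adjusted p = 1.08e-05).

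Smaller rises were found for *Uhrf1* (0.45 ± 0.17, edgeR adjusted p = 0.0267) and *Dnmt3b* (0.32 ± 0.12, edgeR adjusted p = 0.0296). *Dnmt3l* was lower in twins, with 79.9, 126.1 and 209 CPM against 78.0, 205 and 598 CPM, and 18 of 19 twin pairs were below the intact median (log2 difference -0.88 ± 0.17, edgeR adjusted p = 1.98e-05). *Tet3*, with medians of 26.2 CPM in twin pairs and 43.8 CPM in intact blastocysts, was lower too (-0.75 ± 0.24, edgeR adjusted p = 0.00832). *Dnmt1* (0.06), *Dnmt3a* (0.08), *Tet2* (0.31) and *Zfp57* (0.62) were not called, with 95% confidence intervals that reached from -0.31 to 0.44, -0.31 to 0.46, -0.05 to 0.67 and -0.19 to 1.43. The median over the 10 genes was 0.32 and over all genes tested -0.01.

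Twin pairs are pools of both twins, and each had at least 1676976 counts, while no intact blastocyst had more than 1254428. With 1 twin of each pair, 9 of the 10 genes could be tested (not *Zfp57*), and 4 were called with twin a, beside 3665 of all 9921 genes, and 5 with twin b, beside 3962 of 9886. With total counts and detected genes as covariates, of which the first separates the kinds, 1 of the 10 genes was called, *Tet1*, and *Dnmt3l* turned to 0.28 (edgeR adjusted p = 0.578), while *Dppa3* stood at 1.15 (edgeR adjusted p = 0.229). The other 3 genes missed the threshold there at differences of 0.50 for *Dnmt3b*, 0.69 for *Uhrf1* and -0.99 for *Tet3*, each larger in size than without the covariates. The effect of the kind of blastocyst on ICSI sites was not called for any gene (0% of 10689 genes for both comparisons with equatorial ICSI, edgeR), though *Dppa3* and *Dnmt3b* had an unadjusted p under 0.05 for ipsilateral against equatorial ICSI, beside 2.06% of all genes.

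Lineage markers differed between twin and intact blastocysts as well. Of 6 epiblast genes 4 were higher and 0 lower in twins (median log2 difference 0.75), among them *Gdf3* (2.07 ± 0.37) and *Tdgf1* (1.77 ± 0.40). Of 8 trophectoderm genes 5 were lower and 1 higher (median -0.47), *Cdx2* being the higher one (1.41 ± 0.17). Of 6 primitive endoderm genes 1 was higher and 2 lower (median -0.24). The summed epiblast genes ranged from 148 to 466.3 CPM in twin pairs and from 2.61 to 404 CPM in intact blastocysts, the trophectoderm genes from 3792 to 5064 and from 4309 to 10405 CPM, and the primitive endoderm genes from 321 to 730 and from 75.9 to 967 CPM. Their part in the differences of the methylation genes was not tested.

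Of the 81 partners 71 were tested between twin and intact blastocysts, and 16 were higher and 15 lower in twins, beside 19.9% and 21.8% of all genes. Maintenance partners were higher in 4 of 9 cases and lower in none, including *Pcna*, the replication clamp (186 ± 39.6 against 114.1 ± 38.2 CPM, SD, n = 19 and 31, log2 difference 0.60 ± 0.14, edgeR adjusted p = 0.000242). *Trim28* was higher (417 ± 57.997 against 290 ± 65.5 CPM) and *Ogt*, the O-GlcNAc transferase that binds TET proteins, was lower (103 ± 36.8 against 237 ± 122.4 CPM). In the methyl donor cycle *Bhmt*, which makes methionine from betaine, was at 100.99 ± 48.5 CPM in twin pairs and 6.57 ± 16.4 CPM in intact blastocysts (log2 difference 3.98 ± 0.50, edgeR adjusted p = 8.29e-09). *Nthl1*, a glycosylase for oxidised pyrimidines, was at 42.3 ± 15.99 and 7.94 ± 7.35 CPM.

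Within the blastocysts some of the 10 genes varied together from embryo to embryo. These values are correlations across embryos after subtracting the mean of each ICSI site, given as a description, and the points of a panel share the libraries and their depth. *Dnmt3l* and *Dppa3* ran against each other in 19 twin pairs (Spearman rho -0.76, Pearson r -0.69) and in 31 intact blastocysts (rho -0.68, r -0.67). In twin pairs *Dnmt3l* ran with *Dnmt3a* (rho 0.85) and *Dnmt3b* (rho 0.81), and with the summed primitive endoderm genes (rho 0.80), while *Dppa3* ran against these (rho -0.62). In intact blastocysts *Dnmt3l* ran only weakly with *Dnmt3b* (rho 0.20) and weakly against *Dnmt3a* (rho -0.20). The primitive endoderm sum also ran less closely there with *Dnmt3l* (rho 0.28) and *Dppa3* (rho -0.25). The total count ran against *Dnmt3l* there (rho -0.58). Of the marker lists the summed cumulus genes ran most closely with both in intact blastocysts (rho 0.66 with *Dnmt3l* and -0.43 with *Dppa3*). Their sum ranged from 0 to 116.2 CPM, 6 of the 7 genes had a median of 0 and *Ptx3* had no read, and their part in the pattern was not tested.

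*Tet1* and *Zfp57* rose together in twin pairs (rho 0.55, r 0.68) and in intact blastocysts (rho 0.61, r 0.65). Both genes ran with the summed epiblast genes in both kinds, in twin pairs (rho 0.70 for *Tet1* and 0.43 for *Zfp57*) and in intact blastocysts (rho 0.43 and 0.54). With the primitive endoderm genes the kinds were less alike. In twin pairs these genes ran weakly with *Zfp57* (rho 0.24) and not with *Tet1* (rho 0.03). In intact blastocysts *Tet1* ran most closely with the primitive endoderm genes (rho 0.82), as did *Zfp57* (rho 0.74), and *Zfp57* ran against the trophectoderm genes (rho -0.58). There *Zfp57* had a median of 3 reads and none in 8 of 31 libraries, so its correlations rest on few reads. *Zfp57* also ran there with the number of detected genes (rho 0.38), and *Tet1* did so in twin pairs (rho 0.55). In 2-cell embryos the closest pair was *Tet3* and *Uhrf1* (rho 0.55, n = 55), followed by *Tet3* and *Dnmt3a* (rho 0.48). *Dppa3* ran with the summed oocyte genes (rho 0.50) and against the summed epiblast (rho -0.50) and primitive endoderm genes (rho -0.39). At this stage these 2 sums were low and rested on few genes. The epiblast sum had a median of 64.6 CPM, with *Sox2* at 34.4 and 2 of 6 genes at 0. The primitive endoderm sum had a median of 56.3 CPM, with *Gata4* at 43.7 and 3 of 6 genes at 0. *Tet3*, *Uhrf1* and *Dnmt3a* fell with the mitochondrial share of counts (rho -0.59, -0.38 and -0.37) and *Dppa3* rose with it (rho 0.62). The part of that share in these correlations was not tested.

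**Figure D5:**
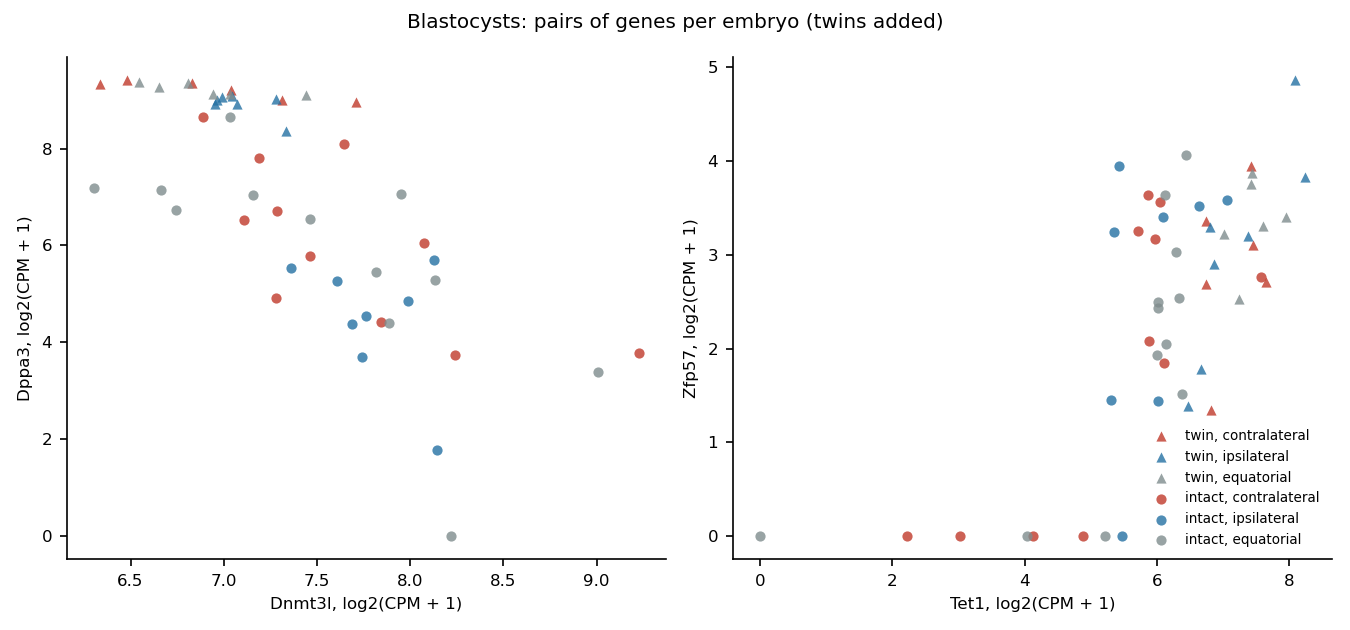
*Dppa3* against *Dnmt3l* on the left and *Zfp57* against *Tet1* on the right, as log2(CPM + 1) per embryo, with triangles for twin pairs, circles for intact blastocysts and colours for the ICSI site. Embryos with more *Dnmt3l* have less *Dppa3* in both kinds of blastocyst, and the twin pairs stand above the intact blastocysts in *Dppa3*.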

How the data were processed

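Full-length cDNA of single blastomeres and single blastocysts was made with a SMART-Seq kit and sequenced as Nextera XT libraries. The authors used Trimmomatic 039 for trimming, cut paired-end data to 100 bases of the first mate, mapped with STAR 2.7.10b (SmartSeq mode, unstranded) against GRCm38 and GENCODE M23, and deposited whole-number counts per gene, not normalized and with duplicates kept. Without molecular identifiers a read is not a molecule, so counting errors and the limit of 3 counts cover counting error only, and antisense or near-identical genes are not separated.

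CPM and TPM were computed here (exonic union lengths of GENCODE M21). Of 125 blastomeres, the 55 pairs with at least 9500 detected genes in both sisters entered, and sister counts were added. 25 further labelled blastomeres were not analysed here. Differences were tested with edgeR 4.0.16 (TMM, filterByExpr, quasi-likelihood, robust dispersion, Benjamini-Hochberg, threshold 0.05, 2-sided), with plate as a term for 2-cell embryos and stages, and sister distances with limma 3.58.1, in R 4.3.3. P values measure the spread between embryos of 2 sperm donors. Summaries used Python 3.11.15, pandas 2.3.3 and scipy 1.17.1. Alternatives were RLE factors, library size only, no low-count filter, DESeq2 1.42.0, no plate term, single plates, depth covariates, all 62 or only 48 pairs, 1 twin per pair, and the study's rank-sum test on added TPM. Some of the fits were run on simulated data, with an outcome that is not given here. The tests of the stage change between sites and of the sister letters were not among them. The promoter background leaves out chromosome 18. Correlations used log2 of CPM plus a pseudocount of 1. Any of the 10 genes could be named in each comparison, and of 7 partner lists at most 2 genes that rose and 2 that fell, those with the smallest p. The genes and lists were chosen with earlier results of these data known.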

Additional observations from a re-analysis of the deposited data

Results flagged for a closer look

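The change of *Dppa3* between the 2-cell stage and the intact blastocyst differed between ipsilateral and equatorial ICSI, by a test of that difference (log2 difference -2.19, edgeR adjusted p = 0.0269), while the change between contralateral and equatorial ICSI was not called. That test took a shared spread for both stages, and among intact blastocysts alone *Dppa3* was not called between these sites. Within groups of 4 to 10 embryos, single embryos stood apart from their group in 2 of the 40 gene and group combinations looked at, and chance gives about 1 in 20. One ipsilateral twin pair had 328.9 CPM of *Dppa3*, against 482 in the next lowest of 7. One equatorial twin pair had 176.8 CPM of *Dnmt3a*, against 121.8 in the next highest of 6.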

How the results depend on the processing

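Over the alternatives, 1059 of 1090 gene values kept their direction and their side of the threshold, 16 passed it newly, 13 no longer passed it and 2 reversed. Many of these values belong to comparisons in which none of the 10 genes was called, where no call could be lost. The reversals were *Dnmt3l* between twin and intact blastocysts with depth covariates (0.28) and *Tet1* between the stages with twin in place of intact blastocysts (1.33). Both are changes of sign in which 1 of the 2 values was not called. For contralateral against equatorial ICSI 0 of the 10 genes were called, instead of 2, with 48 pairs and with the mitochondrial share as covariate. The rank-sum test on added TPM called *Tet3* and *Dnmt3a* but not *Dppa3* there (0.118 adjusted). For ipsilateral against equatorial ICSI 1 gene was called without the plate term, 2 on plate 1 alone and 1 by the rank-sum test, instead of 0. Between twin and intact blastocysts 1 was called with depth covariates, instead of 6, and genes called overall fell from 4163 to 1165. Without a low-count filter 3930 instead of 1745 genes were called for contralateral and 2603 instead of 902 for ipsilateral against equatorial ICSI, and with depth covariates 123 for the latter. Scaling by library size alone moved the median of all genes between the stages from -0.42 to -0.21, and 8 of the 10 genes were called with either. The cause of these changes was not tested. No paired analysis was possible between ICSI sites because the embryo numbers are unique to 1 site, and sisters were compared with the embryo as a block. Depth limits *Zfp57* and *Tet3* in intact blastocysts and *Tet2* in blastomeres.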
